A study of Arabidopsis thaliana with 36 samples.

Results

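The intergenic part of the Arabidopsis thaliana plastid genome was taken as the 50-bp bins, counted from position 1, that overlap no annotated gene from start to end (introns included) and lie outside both copies of the rRNA operon. The rule used only positions and gave 764 of 3090 bins (24.7%), or 38177 bp of 154477. They fill 98 spacers between neighbouring genes, with a median of 5 and at most 55 bins in a spacer. Of these spacers, 89 lie in the unique regions or the first copy of the inverted repeat and 9 in its second copy, where reads cannot be told from those of the first. Genes overlap 2274 of the other bins, and 52 gene-free bins lie within the operon ranges and were left out.

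Chromatin immunoprecipitation with sequencing (ChIP-seq) was performed on 5-day-old seedlings after 48 h of stratification and growth on 0.5X MS medium under continuous light of 100 µmol m-2 s-1. All groups shared cross-linking of 50 seedlings for 4 h in 4% formaldehyde and an enrichment of chloroplasts. There were 36 libraries in 12 groups of 3: an immunoprecipitate and an input for each of 2 lines in each of 3 sets. The first set used an antibody to RpoB in the wild type Col-0 and in the mutant ptac3 (RpoB/ptac3 set). The second used the same antigen in Col-0 and ptac14 (RpoB/ptac14 set). The third used an antibody to pTAC3 in Col-0 and ptac3 (pTAC3/ptac3 set), so that its mutant line carries a lesion in the gene of the antigen itself. Values for the sets are given below in this order. The labels name no allele and do not say whether replicates were separate cultures, so p-values measure the spread between these libraries, which may be technical. The tests pool that spread in part or in full over bins, or over genes and spacers.

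RpoB is a catalytic-core (beta) subunit of a bacterial-type RNA polymerase encoded in the plastid, which transcribes photosynthesis and tRNA genes from promoters in front of them, most with bacterial-type elements. pTAC3 and pTAC14 are nuclear-encoded proteins that associate with this polymerase, and plants without them make little chlorophyll. A second, phage-type polymerase encoded in the nucleus transcribes housekeeping genes such as the rpo operon, accD, clpP and ycf1. Plastid genes stand close together, many in operons, so a spacer can hold a promoter, the end of a transcript, or the middle of a longer one.

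Each library's coverage was divided by its mean over the plastid genome, and the level in a bin is log2(ChIP/input) with a pseudocount of 5% of the mean. A level of 0 therefore means as much signal as in the input relative to the rest of the plastid genome, and levels are relative, not amounts of bound protein. Mean coverage was 113 to 1538 in the Col-0 immunoprecipitates, 59.2 to 204 in those of the mutants and 318 to 924 in the inputs. Over all bins, the median change from Col-0 to the mutant was 0.84, 1.31 and 0.89 and a change is to be read against this shift. After 4 member bins with little input were left out, 760 entered each test (limma, Benjamini-Hochberg adjustment over all bins of the genome, threshold 0.05). Neighbouring bins share sequenced fragments, so a count of bins gives an extent and not a number of independent events. The reference annotation used here holds no strands. They were entered from general knowledge of the plastid gene map, and the mirrored genes of both repeat copies, 15 of 15 pairs, have opposite strands in that list.

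In Col-0, intergenic signal was unevenly spread. Of the 760 bins, 152, 152 and 179 were above input, or 20%, 20% and 23.6%, against 20.8%, 20.2% and 22.9% of all bins tested. Below input were 496, 490 and 482 bins, which is 65.3%, 64.5% and 63.4%, against 71.5%, 71.8% and 70.1% of all bins. The share above input was thus near that of the whole genome, which, unlike the members, includes the rRNA operon. Above input in all 3 sets were 139 member bins (18.3%), against 19.7% of all bins, and they lay in 41 spacers. In 11 spacers every bin was among them, and in 57 spacers none was. By position, 121 of the 139 lay within 300 bp of a tRNA or rRNA gene, a zone that holds 256 of the 764 bins, and 18 of them lay among the 508 bins farther away. Those 18 bins were found in 6 spacers: 6 in atpB-rbcL, 4 in psbE-petL, 3 in psaA-ycf3, 3 in ndhC-trnV, 1 in clpP-psbB and 1 in trnL-trnF.

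The clearest position-dependent profile away from tRNA genes was in the spacer between atpB, for the beta subunit of the ATP synthase, and rbcL, for the large subunit of Rubisco (positions 54201 to 54950, transcribed away from each other). Its 6 bins above input were contiguous with rbcL, with centres 32.5 to 282.5 bp upstream of the gene. The highest, 54751 to 54800, had its centre 182.5 bp upstream of rbcL. In the RpoB/ptac3 set its Col-0 levels were 1.27, 1.52 and 1.56, and its ptac3 levels were -0.14, -0.33 and -0.38. In the RpoB/ptac14 set the Col-0 levels were 2.31, 2.46 and 1.41, and the ptac14 levels were -0.38, 0.18 and 0.40. With the pTAC3 antibody the Col-0 levels were 1.94, 2.65 and 1.70, and the ptac3 levels were -1.0, -0.24 and -0.07. The Col-0 and mutant libraries of this bin did not overlap in any set, and the Col-0 means correspond to 2.73, 4.16 and 4.28 times the input. The bin was picked for its high Col-0 level, so this lack of overlap is a description. At the other end of the same spacer, 69.5 bp upstream of atpB, the Col-0 mean was -0.98, -1.52 and -0.99. Of the 15 bins, 6 passed the test as lower in the mutant in all 3 sets and 6 as higher in all 3.

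Similar gradients in Col-0, with lower tops, were seen in front of 3 genes of the photosystems. These tops were picked as the bin with the highest Col-0 mean over the 3 sets. Their Col-0 levels, and how far the mutants lay below them, are thus descriptions. In front of psaA, for a core protein of photosystem I (41901 to 42550), the top was 168.5 bp upstream, at 0.82, 0.72 and 1.31 in Col-0. The mutant levels there were 0.22, 0.12 and 0.13 in ptac3, 0.51, 0.10 and 0.49 in ptac14, and 0.25, 0.22 and -0.01 with the pTAC3 antibody, all below every Col-0 library of their set. In the same spacer the bin 468.5 bp upstream stood at -1.41, -1.66 and -1.34 in Col-0. Of the 13 bins, 0 passed the test as lower in the mutant in all 3 sets and 6 as higher.

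In front of psbE, for a subunit of cytochrome b559 (64351 to 65700), the top was 153.5 bp upstream, at 0.71, 1.01 and 1.17. The levels of all 9 Col-0 libraries in it were above those of the mutants. Above-input bins had centres 53.5 to 203.5 bp from psbE and covered 4 of the spacer's 27 bins. In all 3 sets 2 of the 27 were lower in the mutant and 22 higher. In front of psbB, for the antenna protein CP47 of photosystem II (clpP-psbB, 71901 to 72350), the top was 145.5 bp upstream, at 0.32, 0.44 and 0.96. On the clpP side of it, 93.5 bp upstream of that protease gene, the bin was at -1.04, -1.05 and -0.72. Of the 9 bins of clpP-psbB, 0 were lower in the mutant in all 3 sets and 3 higher. For these 3 genes and rbcL the top thus lay 145.5 to 182.5 bp upstream of the annotated start of the gene.

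**Figure D1:**
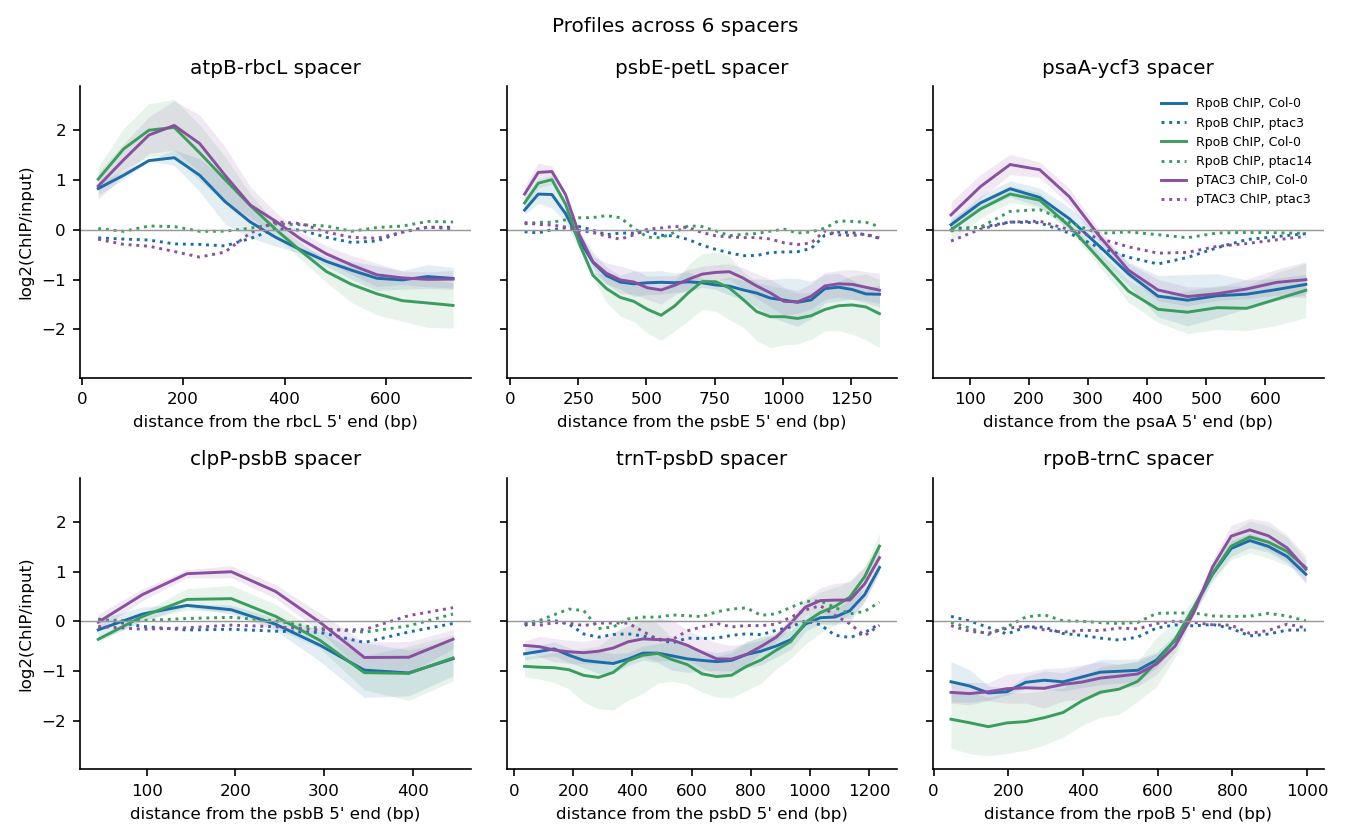
Mean log2(ChIP/input) of 50-bp bins in 6 spacers against distance in bp from the named gene's 5' end, for Col-0 (solid, band of 1 SD over 3 replicates) and the mutants (dotted, no band) of each set. In front of rbcL the Col-0 line peaked 182.5 bp upstream at 1.45, 2.06 and 2.10, where the mutant means were -0.28, 0.07 and -0.44.

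The spacer psbA-trnK (1451 to 1700), in front of the gene for the D1 protein of photosystem II, had 4 of its 5 bins above input in all 3 sets. Its bin nearest psbA, 31.5 bp upstream, had Col-0 means of 1.78, 2.05 and 2.0, and its bin at 231.5 bp had 0.55, 0.39 and 0.45. The level thus fell along the spacer from psbA towards trnK. Other spacers in front of genes for photosynthesis had their tops beside a tRNA gene instead. In trnT-psbD (31451 to 32700), the spacer in front of the D2 gene psbD, the top lay 35.5 bp from the 3' end of trnT at 1.08, 1.51 and 1.28. Only 2 of its 25 bins were above input in all 3 sets, and its mean level was -0.44, -0.53 and -0.24. In trnQ-psbK (6701 to 7000), ahead of a small photosystem II subunit gene, the top lay 38.5 bp from trnQ at 1.85, 2.06 and 2.18, and the bin 41.5 bp from psbK was at -0.51, -0.47 and -0.27. The spacer of petA, for cytochrome f (cemA-petA), and that of ndhF, for a subunit of the NDH complex (ndhF-rpl32), had no positive Col-0 mean in their highest bins, which stood at -0.44, -0.45 and -0.42 and at -0.66, -0.45 and -0.43.

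Spacers in front of genes known for transcription by the nuclear-encoded polymerase were mostly below input at the gene. The median level over all bins in Col-0 was -0.89, -1.31 and -0.93. In rpoB-trnC (26351 to 27350), 6 of 20 bins were above input in all 3 sets, with the top 197.5 bp upstream of trnC and 846.5 bp from rpoB, at 1.62, 1.70 and 1.84. The bin 146.5 bp upstream of rpoB stood at -1.44, -2.12 and -1.42. In trnN-ycf1 (109101 to 109400) the top lay 41.5 bp from trnN at 0.70, 0.72 and 1.07, and the bin 29.5 bp from ycf1 was at -0.65, -0.84 and -0.31. In rbcL-accD (56401 to 57050), ahead of accD for a subunit of acetyl-CoA carboxylase, no bin of 13 was above input in all 3 sets, and the mean was -0.21, -0.33 and -0.16. Its lowest bin, 49.5 bp upstream of accD, was at -0.42, -1.04 and -0.63, and its highest, 399.5 bp upstream, at 0.11, 0.13 and 0.23. In each of these 3 spacers the lowest bin lay nearer to the named gene than the highest bin did. The bins given near ycf1 and accD were above the median of all bins in each set, and that near rpoB was below it. Also listed here as a gene of this polymerase was ycf2. Its spacer trnI-ycf2, a single bin beside a tRNA gene, ran from 1.35 to 1.75 in the Col-0 libraries.

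The 8 highest spacers with at least 2 bins, ranked by their mean in Col-0, all had a tRNA gene on at least one side. At the top was trnV-trnM (51901 to 52050), between genes for a valine and a methionine tRNA. Its Col-0 levels were 2.10, 1.92 and 1.98 with ptac3, 2.23, 2.39 and 2.18 with ptac14, and 2.44, 2.38 and 2.21 with the pTAC3 antibody. Its mutant levels were -0.16, -0.14 and -0.21, then -0.13, -0.08 and 0.83, then -0.34, 0.33 and 0.05. No mutant library reached a Col-0 library. This spacer was named for its high Col-0 level and large fall, from the libraries tested next, so its p-values are no independent support. In limma's fit over 237 genes and spacers its change in the mutant was -2.17 (SE 0.18, adjusted p = 2.6e-28), -2.06 (SE 0.26, adjusted p = 4.6e-06) and -2.33 (SE 0.18, adjusted p = 8e-07), a fall in each set. In the RpoB/ptac3 set this fit gave all named spacers the same SE of 0.183. Its very small p-values there rest on a spread pooled over features, not on that of the single spacer. The spacer trnL-trnF (47501 to 48150), between leucine and phenylalanine tRNA genes, was above input in every one of its 13 bins in all 3 sets, with means of 1.91, 2.24 and 2.16. Its highest bin, 85.5 bp past the end of trnL, was at 2.52, 2.92 and 2.85, or 5.75, 7.56 and 7.21 times the input. Next to these stood trnfM-rps14 (36801 to 36900), upstream of the initiator tRNA gene, at 1.77, 2.17 and 2.0. The other spacers of this group were trnG-trnfM, trnW-trnP, psbA-trnK, ArthCt100-trnL (ArthCt100 has no name in the annotation) and trnF-ndhJ, whose set means lay between 1.07 and 1.62.

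The lowest 4 spacers were all between protein genes of the ribosome, the polymerase, the Clp protease or the NDH complex. They were named for these low Col-0 levels, which also enter their change, so p-values of their rise are no independent support. The spacer ndhB-rps7 (97201 to 97450) had Col-0 levels of -1.82, -1.01 and -1.41 with ptac3, -1.79, -2.11 and -2.94 with ptac14, and -1.41, -1.81 and -1.67 with the pTAC3 antibody. Its mutant levels lay between -0.38 and 0.13 in all 9 libraries. It rose by 1.44, 2.13 and 1.54 (adjusted p = 9.2e-14, 4.6e-06 and 1.8e-06), and still by 0.55, 0.83 and 0.63 when columns were scaled to their median (adjusted p = 0.0054, 0.0022 and 0.0036); scaled to the rpo genes it moved by 0.20, 0.23 and 0.01, with none past the threshold. The other lowest spacers were rps12-clpP at -1.55, -2.0 and -1.76, rpoC2-rpoC1 at -1.27, -2.11 and -1.52, and rps2-rpoC2 at -1.36, -1.94 and -1.55. The last 3 rose in every set by 1.3 to 2.18 under the main scaling. With the rpo scaling their change was -0.22 to 0.29, and 5 of these 9 values were negative. The spacers rpoC2-rpoC1 and rps2-rpoC2 adjoin genes that set this scale, so a change near 0 there is no check. Scaled to the median, rps2-rpoC2 rose by 0.446, 0.525 and 0.39 and missed the threshold in limma's fit (adjusted p = 0.086, 0.081 and 0.056).

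In the fit over genes and spacers, 21, 21 and 27 of the 98 spacers were above input in Col-0, against 32.5%, 32.1% and 36.3% of all 237 features. Below input were 60, 60 and 56 spacers, against 56.5%, 56.5% and 52.7% of features. In the mutants no spacer was above input, against 0.422%, 0% and 0% of features, and 5, 0 and 0 were below, against 2.11%, 0% and 0%; 19, 2 and 7 spacers had an unadjusted p under 0.05 in either direction in limma's fit.

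**Figure D2:**
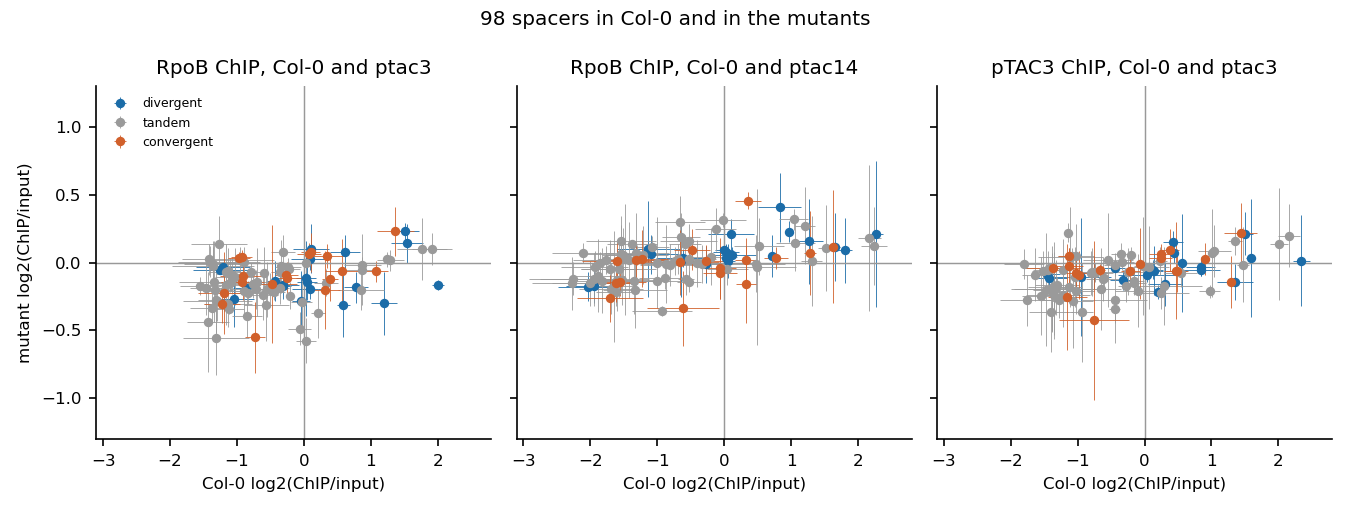
Level of each of 98 spacers, as mean log2(ChIP/input) in the mutant (vertical axis) against that in Col-0 (horizontal axis), one panel per set, coloured by the strands of the neighbouring genes, with bars for the SD of 3 replicates. Col-0 means ran from -1.55 to 2.0, -2.28 to 2.26 and -1.80 to 2.34, with trnV-trnM at the top of each, and mutant means from -0.57 to 0.23, -0.36 to 0.46 and -0.43 to 0.22.

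Spacers were then grouped by their neighbours. The class means below are descriptions over bins, with no test. The largest difference was between gene classes. The 87 bins between 2 RNA genes (11 spacers) had Col-0 means of 0.80, 0.91 and 0.91, with 0.63 to 1.08 over the 9 libraries. The 289 bins between 2 protein genes (49 spacers) had means of -0.86, -1.14 and -0.83, with -1.59 to -0.63. The first exceeded the second by 1.48 to 2.23 in each Col-0 library and by -0.03 to 0.44 in the mutant libraries. Where the spacer faced the 5' end of a tRNA or rRNA gene only, the Col-0 means were 0.36, 0.45 and 0.42. Where it faced photosynthesis or ndh genes they were -0.56, -0.74 and -0.47. Where it faced rpo, rps or rpl genes they were -0.88, -1.23 and -0.92. The photosynthesis class lay above the rpo, rps and rpl class in the mean of all 3 sets. It also holds long spacers beside RNA genes, such as trnT-psbD (25 bins), psbM-trnD (19) and ndhC-trnV (15). Such spacers in the other class were shorter, among them rps16-trnQ (8 bins) and rps4-ArthCt100 (7). The part of nearness to RNA genes in this difference was not tested.

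By strand, 20 spacers (276 bins) were divergent, with both neighbours transcribed away from the spacer, 60 (369 bins) were tandem and 18 (119 bins) convergent. The bin means of divergent spacers were -0.53, -0.86 and -0.53, close to -0.44, -0.60 and -0.40 for tandem and -0.46, -0.75 and -0.47 for convergent ones. These values depended on the long rps7-trnV spacer and its mirrored copy between ArthCt112 and rps7, which hold 109 of the divergent bins. The annotation used here lists only the first exon of rps12, whose other exons are known to lie between rps7 and trnV, so bins there are not free of genes. In an alternative chosen after seeing the data, without both copies, the divergent means were -0.06, -0.10 and 0.07. Divergent bins were then 0.35 to 0.60 above tandem bins in each Col-0 library, against -0.33 to 0.04 with those copies. They were 0.29 to 0.72 above convergent bins, against -0.29 to 0.10 with the copies. Over spacers in place of bins, the medians in Col-0 were 0.07, 0.05 and 0.25 for divergent, -0.82, -1.01 and -0.76 for tandem and -0.25, -0.38 and -0.14 for convergent spacers.

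Among the spacers between 2 protein genes, which do not hold the rps7-trnV copies, divergent bins had means of -0.62, -0.70 and -0.42, with 16.4%, 19.4% and 22.4% above input. Tandem bins had -0.96, -1.3 and -0.98, with 1.65%, 1.65% and 3.3% above input. Convergent bins had -0.81, -1.12 and -0.83, and none of them passed the test as above input. Of all bins tested, 20.8%, 20.2% and 22.9% were above input, so the share of the divergent class was not above that of the genome. This class holds only atpB-rbcL, psbE-petL, clpP-psbB, psbN-psbH and ndhF-rpl32. Its bins above input in all 3 sets lay only in the first 3 of these, in front of rbcL, psbE and psbB. The order was the opposite between 2 RNA genes, where divergent bins (44) stood at 0.31 to 0.96 in the Col-0 libraries and tandem bins (25) at 1.19 to 1.90. Of these tandem bins, 13 lie in trnL-trnF alone (1.69 to 2.45) and 8 in trnD-trnY (0.54 to 1.27). The highest spacer, trnV-trnM, is divergent but has only 3 bins. The order without trnL-trnF was not tested. Between 1 protein and 1 RNA gene, a class that holds rps7-trnV and its copy, divergent bins had means of -0.79, -1.32 and -0.88 and tandem bins -0.14, -0.17 and -0.06. At least 300 bp from RNA genes, again with both copies, divergent minus tandem was -0.42 to -0.03 in the Col-0 libraries.

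**Figure D3:**
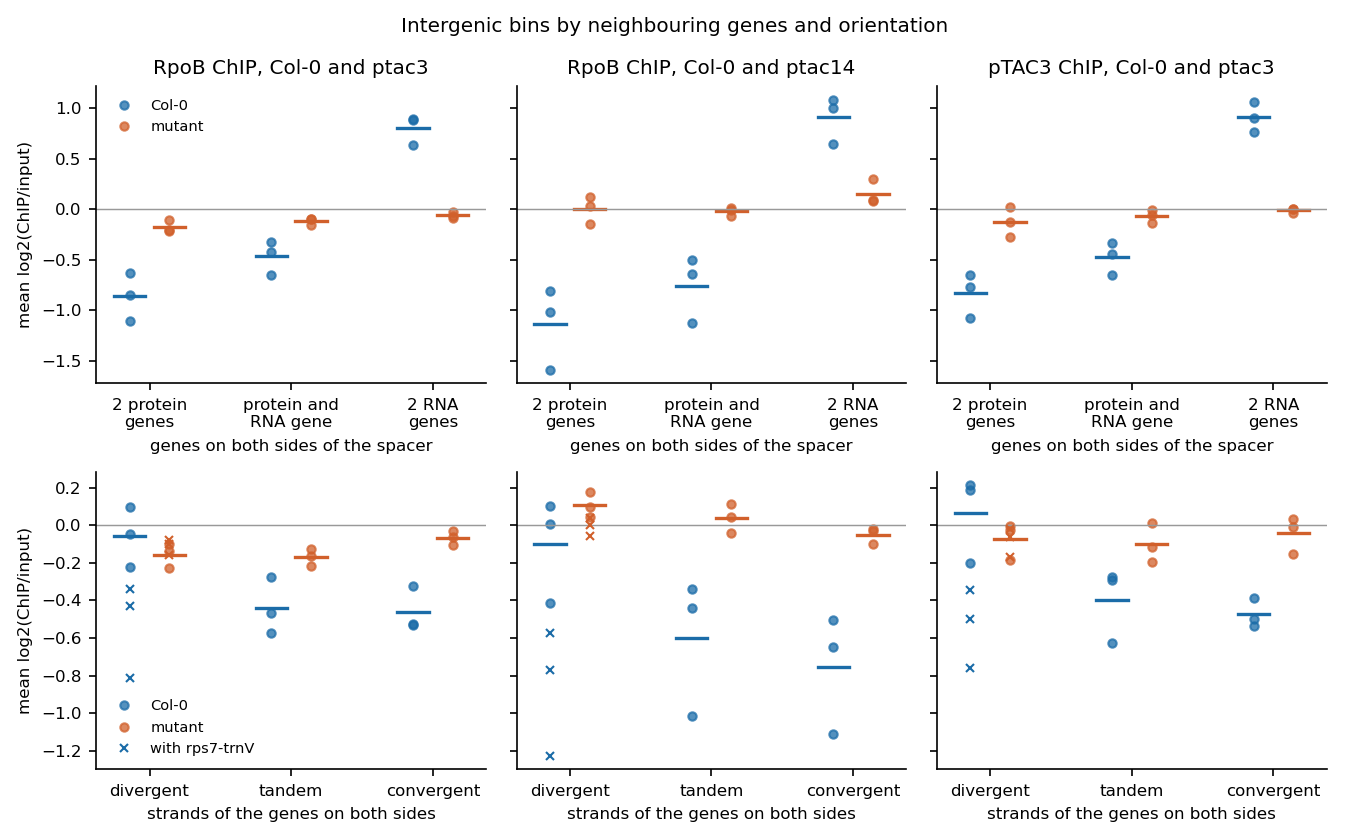
Mean log2(ChIP/input) of member bins by class of neighbouring genes (top) and strand (bottom; circles leave out rps7-trnV and its copy, crosses include them), one point per library and a bar at the mean of 3 replicates, for Col-0 and the mutants of each set. Bins between 2 RNA genes stood at 0.63 to 1.08 in the 9 Col-0 libraries, above the bins between 2 protein genes at -1.59 to -0.63, and mutant libraries stood between -0.27 and 0.30 in both classes.

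The level also declined with distance from the nearest 5' end. Bins with centres under 100 bp from one (138 bins) had Col-0 means of -0.11, -0.23 and -0.01. At 100 to 250 bp (260 bins) the means were -0.27, -0.39 and -0.20, and at 250 to 500 bp (215 bins) they were -0.59, -0.82 and -0.59. Beyond 500 bp (151 bins) they were -1.01, -1.58 and -1.13. The nearest class exceeded the farthest by 0.73 to 1.56 in each of the 9 Col-0 libraries and by -0.03 to 0.27 in the mutants. Nearness to RNA genes moves with this distance. Among bins at least 300 bp from an RNA gene, the 4 classes stood at -0.86, -0.83, -0.78 and -1.14 in the RpoB/ptac3 set, with no decline over the first 3, and the nearest exceeded the farthest by 0.21 to 0.64 in the Col-0 libraries. The farthest class also holds bins of rps7-trnV and its copy, whose part in this was not tested. Distance from the nearest 3' end gave low levels far from genes too. The Col-0 libraries ran from -0.90 to -0.22 under 100 bp from a 3' end and from -0.63 to -0.01 at 100 to 250 bp. They ran from -1.21 to -0.37 at 250 to 500 bp and from -1.71 to -0.59 beyond 500 bp. The decline was thus not particular to 5' ends.

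The sides of genes differed less than their kind. Bins within 100 bp of the 5' end of a protein gene were 0.11 to 0.26 above bins within 100 bp of a 3' end in each Col-0 library. In the mutants that difference was -0.02 to 0.06. At RNA genes, the 5' side had means of 1.11, 1.29 and 1.3 and the 3' side 0.71, 0.84 and 0.83, a difference of 0.30 to 0.62 over the Col-0 libraries. Both sides of RNA genes were thus above the mean of all member bins in each Col-0 library.

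**Figure D4:**
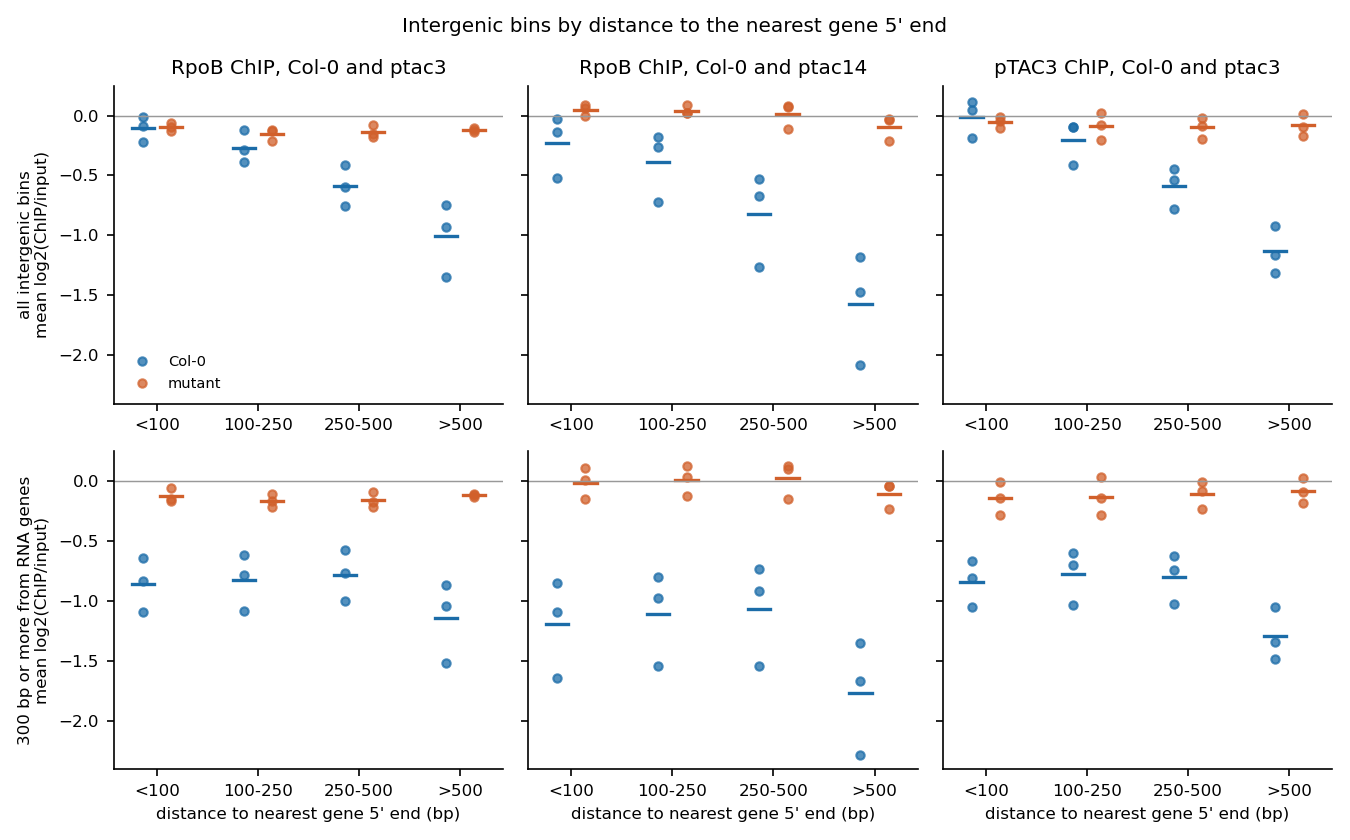
Mean log2(ChIP/input) of member bins in 4 classes of distance in bp from the bin centre to the nearest 5' end, one point per library and a bar at the mean of 3 replicates, for all members (top) and for those at least 300 bp from an RNA gene (bottom). Over all members the Col-0 means went from -0.11, -0.23 and -0.01 in the nearest class to -1.01, -1.58 and -1.13 in the farthest.

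As a whole, the member mean exceeded that of bins in genes by 0.03, 0.17 and 0.11 in Col-0, above 0 in 8 of 9 libraries. Leaving out a replicate gave 0.018 to 0.055, 0.13 to 0.21 and 0.051 to 0.16. The difference was 0.18, 0.36 and 0.27 with only the first repeat copy and 0.16, 0.41 and 0.23 between medians. Against bins in protein genes only, members were 0.41 to 0.78 higher in the Col-0 libraries. Members at least 300 bp from an RNA gene had means of -0.91, -1.29 and -0.94, and protein-gene bins had -0.95, -1.45 and -1.04.

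Between mutant and Col-0, 421, 460 and 432 member bins were higher in the mutant, or 55.4%, 60.5% and 56.8%, against 66.8%, 69.4% and 66.6% of all bins. Lower in the mutant were 136, 103 and 160, or 17.9%, 13.6% and 21.1%, against 19.1%, 17.5% and 21.2% of all bins. Of the bins that are not members, 70.5%, 72.3% and 69.8% were higher and 19.5%, 18.8% and 21.2% lower, and the difference between these shares and those of the members was not tested. The member median change was 0.58, 1.05 and 0.62, below the median of all bins given above. In all 3 sets 98 member bins (12.9%) were lower, against 17.1% of all bins, and 404 (53.2%) were higher, against 64.9%. The balance of member bins turned with the scaling. With columns scaled to their median 43.9%, 44.5% and 43.8% were lower and 6.32%, 20.5% and 18.3% higher. With the rpo scaling 56.7%, 63.7% and 69.2% were lower and 0.0%, 0.658% and 0.132% higher. Each scaling moves all bins of a library together. Shares of all bins under these scalings are not given here, so the turn cannot be called particular to the members. Over spacers, 46, 56 and 51 of 98 were higher, against 47.3%, 53.2% and 49.8% of features, and 23, 16 and 24 were lower, against 31.2%, 26.2% and 34.6%.

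The levels in the mutants were close to input. No member bin was above input in any mutant group in limma's fit, against 0%, 0% and 0.0972% of all bins, while 136, 29 and 100 member bins (17.9%, 3.82% and 13.2%) had an unadjusted p under 0.05 in either direction, against 9.79%, 2.4% and 7.16% of all bins. Below input were 37, 0 and 7 member bins, or 4.87%, 0% and 0.921%, against 1.36%, 0% and 0.292% of all bins. The 37 in ptac3 with the RpoB antibody lay in 16 spacers, of which trnK-rps16 held 6, accD-psaI and trnH-psbA 4 each, and psaA-ycf3, ndhG-ndhI and psbZ-trnG 3 each. In the 6 bins of trnK-rps16 the mean level was -0.81 in ptac3, 0.18 in ptac14 and -0.36 with the pTAC3 antibody in ptac3. These bins were thin in input: their median was 0.578 of the plastid mean in the ptac3 input, against 0.955 over all member bins and 1.03 over bins in genes. The number depended on single libraries. It was 4.87% of members with all libraries, 9.21% without Col-0 replicate 1, 2.24% without Col-0 replicate 3, 1.71%, 0.0% and 2.37% without ptac3 replicate 1, 2 or 3. In the pTAC3/ptac3 set the 7 bins (0.921%) became 0.0% without Col-0 replicate 1 or ptac3 replicate 2, 1.97% without Col-0 replicate 3, and 2.63% and 0.263% without ptac3 replicate 1 or 3. The part of thin input in this was not tested.

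Input itself gave no member bin that differed between mutant and Col-0 in limma's fit, against 0% of all bins in each set, with 75, 80 and 59 member bins (9.87%, 10.5% and 7.76%) at an unadjusted p under 0.05, against 12.8%, 15% and 13.6% of all bins. Mean input in member bins was 0.92, 0.90 and 0.96 of the plastid mean, and in genic bins 1.03, 1.04 and 1.02.

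A contrast that does not depend on the scaling of columns, apart from the pseudocount, set each spacer against the nearest 200 bp of both neighbouring genes. In Col-0, 13, 20 and 17 of the 98 spacers were above their neighbours, against 13.8%, 20.2% and 17.4% of 109 spacers in the genome, and 47, 33 and 37 were below, against 43.1%, 30.3% and 33.9%. In the RpoB/ptac14 set 13.3% of spacers were above without Col-0 replicate 2, against 20.4% with it. Above in all 3 sets were 13 spacers, 11 of them outside the second repeat copy: psbA-trnK, trnfM-rps14, ArthCt100-trnL, trnL-trnF, trnF-ndhJ, trnV-trnM, atpB-rbcL, clpP-psbB, trnN-ycf1, and psbN-psbH and trnI-ycf2 with 1 bin each. The call of psbA-trnK in the RpoB/ptac14 set (0.29, adjusted p = 0.019) was lost in limma's fit without Col-0 replicate 2 or 3 (adjusted p = 0.082 and 0.12) and with flanks of 100 bp (0.18, adjusted p = 0.068). Of the 13, 9 were divergent, 3 tandem and 1 convergent. The divergent ones include ycf1-trnN and ycf2-trnI, the second repeat copies of trnN-ycf1 and trnI-ycf2, which share their reads. By class, with both repeat copies counted, 9, 10 and 9 of 20 divergent spacers were above their neighbours. So were 3, 9 and 6 of 60 tandem ones and 1, 1 and 2 of 18 convergent ones.

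In atpB-rbcL the local contrast in Col-0 was 0.25, 0.40 and 0.24, then 0.95, 0.76 and 0.38, then 0.46, 0.66 and 0.25. In the mutants it was -0.08, -0.37 and -0.32, then 0.12, 0.06 and 0.18, then -0.27, -0.01 and -0.06. Mutant and Col-0 libraries did not overlap in any set. The change was -0.56 (SE 0.10, adjusted p = 0.0013), -0.58 (SE 0.14, 0.0095) and -0.57 (SE 0.13, 0.0027) in limma's fit over 109 spacers. The contrast of clpP-psbB stood at 0.29, 0.54 and 0.67 in Col-0 and changed by -0.56, -0.63 and -0.83 (adjusted p = 0.00065, 0.0033 and 5.7e-05). The highest contrast was that of trnfM-rps14, which was named for it, so its p-values are no independent support. That contrast stood at 0.91, 1.10 and 0.98 and changed by -1.06, -0.97 and -1.05 (adjusted p = 0.00014, 0.00047 and 1.8e-05, by limma). In trnN-ycf1 it was 0.24, 0.43 and 0.35 and changed by -0.29, -0.49 and -0.45 (adjusted p = 0.02, 0.0083 and 0.0042). The first of these calls was lost in limma's fit without Col-0 replicate 2 or 3 or without ptac3 replicate 2 (adjusted p = 0.057, 0.053 and 0.072).

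The contrast went the other way in trnT-psbD, where the spacer was below its neighbours by -1.05, -1.33 and -1.11 in Col-0 and the change in the mutant was 0.64, 1.16 and 0.77 (adjusted p = 0.00022, 0.00085 and 7.3e-05). One of its neighbours is a tRNA gene. In psaA-ycf3 the contrast was 0.09, 0.29 and 0.33 in Col-0 and changed by -0.34, -0.13 and -0.51 (adjusted p = 0.039, 0.4 and 0.0021), so the second set missed the threshold. In the RpoB/ptac3 set the call was lost without Col-0 replicate 1 or 2 (-0.24 and -0.36, adjusted p = 0.16 and 0.067) and without ptac3 replicate 1 or 3 (-0.33 and -0.29, adjusted p = 0.093 and 0.14), by limma. In psbE-petL it was 0.05, 0.31 and 0.10, past the threshold in the RpoB/ptac14 set only (adjusted p = 0.0037), where it was 0.18 and missed the threshold with flanks of 100 bp (adjusted p = 0.052). Its change of -0.20, -0.24 and -0.18 missed it in all sets (adjusted p = 0.11, 0.076 and 0.2). In rpoB-trnC it was 0.01, 0.002 and 0.11 in Col-0, none past the threshold, and changed by -0.34, -0.11 and -0.24 (adjusted p = 0.016, 0.49 and 0.099). The first of these was -0.29 without Col-0 replicate 3 or ptac3 replicate 1 and missed the threshold in limma's fit (adjusted p = 0.064 and 0.067). Over all members, the contrast was higher in the mutant in 17, 16 and 20 spacers, against 15.6%, 14.7% and 18.3% of 109, and lower in 17, 15 and 17, against 17.4%, 16.5% and 18.3%. In the mutants 1, 0 and 0 spacers were above their neighbours (0.917%, 0% and 0% of 109; 48, 15 and 29 members at an unadjusted p under 0.05 in either direction), and 33, 2 and 14 were below (30.3%, 1.83% and 12.8%).

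**Figure D5:**
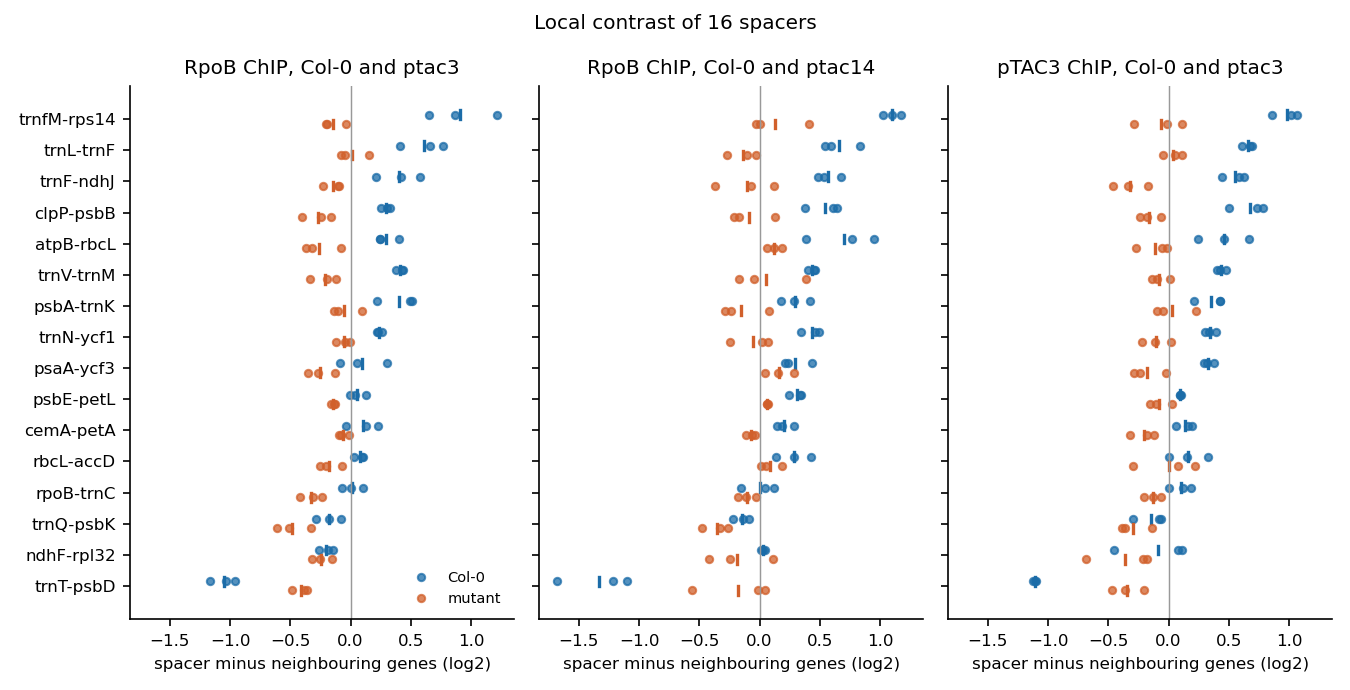
Local contrast, the spacer's log2(ChIP/input) minus the mean of the nearest 200 bp of both neighbouring genes, for 16 named spacers, one point per library and a tick at the mean of 3 replicates, Col-0 and mutants of each set. In atpB-rbcL the Col-0 libraries stood at 0.24 to 0.95 and the mutants at -0.37 to 0.18, and in trnT-psbD the Col-0 libraries were the lower ones.

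The response to both mutants was compared with the same RpoB antigen. The difference between the change in ptac14 and that in ptac3 had a median of 0.41 over member bins, against 0.43 over all bins. No member bin, spacer or local contrast passed the threshold in limma's fit, against 0% of all bins, spacers and genes, and local contrasts. At an unadjusted p under 0.05 were 113 member bins (14.9%, against 16.5% of all bins), 9 spacers and 8 local contrasts. The lowest adjusted p over all features was 0.298 for bins, 0.318 for genes and spacers and 0.0892 for local contrasts. This does not show that both mutants act alike.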

How the data were processed

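Plastid ChIP-seq coverage of 36 libraries was used. Per the submitters' processing notes, reads were handled with Trim Galore 0.4.1, Bowtie2 2.2.8.9 and bedtools 2.25.0, and the build is TAIR10. The authors deposited a whole-number coverage signal for each position of the plastid genome, with no normalization seen in the values; how multiply mapped reads were counted is not given in the sources used here. Coverage was averaged in 50-bp bins and divided by the column's mean, and log2(ChIP + 0.05) minus log2(input + 0.05) was taken with the input of the same replicate number. Where the scaled input averaged less than 10% of its median over bins, the bin was dropped (5, 5 and 4). Tests used limma 3.58.1 in R 4.3.3 with Benjamini-Hochberg adjustment over all bins, over 237 genes and spacers, or over 109 local contrasts, within each set. The code was tested on simulated data with known changes between mutant and Col-0. Of changes of 0.5 on the log2 scale in bins, 2%, 0% and 11% passed the threshold, and of changes of 1, 59%, 30% and 71%. For genes and spacers these shares were 60%, 5% and 55%, and 95%, 75% and 85%. Small changes in single bins would thus mostly be missed.

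Per the labels, groups came from the titles, since the genotype field reads wild type throughout. Levels of a spacer are means over its bins. Named spacers were the 8 highest and 4 lowest in Col-0, those in front of listed genes of either polymerase, and those with the most extreme change or local contrast. The other named ones were chosen after their values were seen. For spacers picked by level, change or contrast, the tests use the same values that picked them. The members and lists were chosen with earlier results of these data known. Same-numbered libraries of ChIP in both lines deviated together in the RpoB/ptac14 set (r over bins of 0.462, 0.281 and 0.709), not in the RpoB/ptac3 (-0.387, -0.196 and 0.018) or pTAC3/ptac3 set (0.385, -0.248 and -0.046). Alternatives were other scalings, pseudocounts, inputs, flanks, distances from RNA genes, repeat copies, a replicate block and leaving out each replicate. No sequence was at hand, so promoter motifs were not searched.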

Additional observations from a re-analysis of the deposited data

How the results depend on the processing

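In order of the sets, the share of member bins above input in Col-0 was 43.2%, 51.6% and 46.2% with median scaling, 58.8%, 72.4% and 67.6% with the mean of the rpoB, rpoC1 and rpoC2 genes as the scale (rpo), and 4.14%, 4.54% and 5.72% among bins at least 300 bp from RNA genes; leaving out a replicate gave 17.9% to 19.5%, 15.4% to 22.2% and 20.4% to 23.7%. Lower in the mutant were 43.9%, 44.5% and 43.8% (median), 56.7%, 63.7% and 69.2% (rpo) and 2.96%, 1.78% and 6.51% (300 bp), and without one replicate 15.4% to 19.9%, 10.8% to 18.6% and 18.7% to 22.9%. Higher in the mutant were 6.32%, 20.5% and 18.3% (median), 0%, 0.658% and 0.132% (rpo), and without one replicate 50.8% to 57.0%, 56.7% to 62.9% and 52.9% to 57.6%. The share below input in the mutant was 0% under median scaling, rpo scaling and 1 fit of all groups in the RpoB/ptac3 and pTAC3/ptac3 sets, 1.84% in the latter with the mean of 3 inputs, and without one replicate 0% to 9.21% and 0% to 2.63%. Bins with changed input were 0.263% in the RpoB/ptac3 set with the replicate block and with 1 fit of all groups, and 0.658% in the RpoB/ptac14 set with 1 fit. The replicate block changed no other count or class value beyond the limits used. Shares of all bins, or of all genes and spacers, under these alternatives are not given here. No move of a share can thus be called particular to the members.

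Spacers lower in the mutant went from 23.5%, 16.3% and 24.5% to 55.1%, 59.2% and 54.1% (median), 68.4%, 80.6% and 79.6% (rpo) and 0%, 0% and 4.17% (300 bp), with 21.4% to 24.5%, 15.3% to 22.4% and 20.4% to 26.5% without one replicate. Spacers above their neighbours were 6.25% (RpoB/ptac3) and 10.4% (pTAC3/ptac3) at 300 bp, and without one replicate 13.3% to 14.3%, 13.3% to 23.5% and 13.3% to 17.3%. Changed local contrasts went from 34.7%, 31.6% and 37.8% to 16.7%, 14.6% and 18.8% at 300 bp, and to 27.6% to 31.6%, 22.4% to 38.8% and 30.6% to 36.7% without one replicate. Divergent minus convergent bins, -0.07, -0.10 and -0.06, became 0.40, 0.65 and 0.54 without rps7-trnV and its copy, and -0.34, -0.45 and -0.33 as medians over bins; in the RpoB/ptac14 set it was -0.13 and -0.037 with pseudocounts of 1% and 25%, 0.048 in the first repeat copy and -0.14 at 300 bp. The class between 2 RNA genes exceeded that between 2 protein genes by 1.36, 1.62 and 1.44 with a pseudocount of 25%, against 1.66, 2.04 and 1.74; it has no bins at 300 bp. Intergenic minus genic bins became 0.18, 0.36 and 0.27 in the first copy and 0.16, 0.41 and 0.23 as medians.

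Of 1893 values of single spacers under alternatives, 1801 kept direction and side of the threshold, 65 no longer passed it, 9 newly passed it and 18 turned sign. With rpo scaling the change in the mutant turned to -0.14 and -0.14 in rpl20-rps12 (RpoB/ptac3 and pTAC3/ptac3), and, in the RpoB/ptac14 and pTAC3/ptac3 sets, to -0.048 and -0.044 in rps12-clpP, -0.076 and -0.22 in rps2-rpoC2 and -0.12 and -0.37 in ndhD-psaC, and to -0.074 in rpoC2-rpoC1 (pTAC3/ptac3). Local contrasts near 0 turned: with flanks of 100 bp psbE-petL was -0.016 and rpoB-trnC -0.026 (RpoB/ptac3), and with a pseudocount of 1% ndhF-rpl32 was -0.0089 and rpoB-trnC -0.0029 (RpoB/ptac14). Without one replicate, psaA-ycf3 ran from -0.015 to 0.18 and rpoB-trnC from -0.033 to 0.054 (RpoB/ptac3), rpoB-trnC from -0.058 to 0.081 (RpoB/ptac14) and ndhF-rpl32 from -0.18 to 0.097 (pTAC3/ptac3). The cause of these moves was not tested. Mean coverage reached down to 59.2 in the mutant immunoprecipitates, and 3 replicates a group limit small differences.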

Other observations

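The spacers of the inverted repeat could be read in both copies. Over 8 pairs of mirrored spacers the means differed by a median of 0.03 and at most 0.18 on the log2 scale, but both copies share reads, so this is no replicate check.

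The bins at the edges of the rRNA operon ranges were intermediate. The 4 member bins next to the ranges had Col-0 means between -0.15 and 0.60, and the 4 bins just inside them had 0.44 to 1.12, so the level rose across the boundary in each set.

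Several spacers beside tRNA genes were above input in the means of all 9 Col-0 libraries although they were outside the rule for named spacers, and they were picked after their values were seen. The spacer trnD-trnY (29901 to 30300) ran from 0.54 to 1.27 in Col-0 and from -0.36 to 0.38 in the mutants. The spacer trnP-psaJ (66601 to 66900) ran from 0.59 to 1.00 in Col-0 and from -0.26 to 0.31 in the mutants. Its other neighbour, psaJ, encodes a small subunit of photosystem I. The spacer ndhC-trnV (50401 to 51150), upstream of an NDH gene, ran from 0.09 to 0.79 in Col-0 and from -0.26 to 0.34 in the mutants, and 9 of its 15 bins were above input in all 3 sets. The single bin of trnI-ycf2 (86401 to 86450), in front of the large reading frame ycf2, ran from 1.35 to 1.75 in Col-0 and from -0.14 to 0.39 in the mutants.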
